A study of Mus musculus with 9 samples.

Results

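The proteasome is the cell's main machine for degrading ubiquitin-tagged proteins, and the genes described here are the proteasome subunits and their regulators in mouse macrophages exposed to organotins. They were chosen by symbol alone, as all genes named Psma, Psmb, Psmc, Psmd, Psme, Psmf or Psmg followed by a number, and 47 of the 18193 genes with a single-gene probe set on the array met that rule. Each gene was read from the probe set with the highest mean over the 9 arrays, and 26 of the 47 genes had further probe sets. The probe set of Psme2 names a second gene, Psme2b, and was left out by the rule.

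Macrophages were grown from the bone marrow of C57BL6 mice aged 6 to 12 weeks, with medium conditioned by L929 cells, a fibroblast line that supplies macrophage growth factor, which was withdrawn before use. On day 6 in vitro all cultures received lipopolysaccharide (LPS), which macrophages sense as a sign of bacteria, for 3 h (33 ng/mL). They then received sterile saline, TMT OH (trimethyltin hydroxide) at 1.25 µM or TET Br (triethyltin bromide) at 10 µM for 6 h. The labels give 3 biological replicates per group, called saline, TMT and TET below, and the study compared each organotin with saline to follow activation of the NLRP3 inflammasome. Every group carried LPS and no unprimed culture was analysed here, so the values do not show what LPS itself did to these genes. The doses of the compounds differ, so their effects are given side by side, and tests of TET arrays against TMT arrays compare those treated groups and not the compounds at a matched dose.

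As background, the proteasome has a barrel-shaped core built of stacked alpha and beta rings, whose inner surface holds the catalytic beta subunits. A regulatory cap recognises ubiquitin chains, removes them, and unfolds the substrate with a ring of ATPases. In cells exposed to interferons, and in many blood cells at rest, the catalytic beta subunits are exchanged for immunoproteasome subunits, which alter the peptides made for display on MHC class I. Dedicated chaperones assemble core and cap, and other activators and an inhibitor dock on the ends of the core.

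Most proteasome genes were bright, and all differences from saline were between −1.08 and 0.85 on the log2 scale. Under TMT 13 of the 47 genes rose and 1 fell, and under TET 12 rose and 10 fell. Over all genes tested TMT changed 27.8% (14.3% rose and 13.4% fell) and TET changed 50.8% (27.4% rose and 23.4% fell). Among the proteasome genes 27.7% rose and 2.13% fell under TMT, and 25.5% rose and 21.3% fell under TET. The share called under TMT, 29.8%, lies near that of all genes, with more rises and fewer falls, and the share under TET, 46.8%, lies near that of all genes too. The 3 TMT arrays lay above all saline arrays in 22 genes (46.8%, against 23.7% of all genes) and below them in 5 (10.6%, against 21% of all genes), where 44.7% of all genes did not overlap either way. The 3 TET arrays lay above saline in 18 genes (38.3%, against 32.5%) and below in 14 (29.8%, against 26.1%), where 58.7% of all genes did not overlap. The median difference over the 47 genes was 0.14 on the log2 scale under TMT and 0.03 under TET, against 0.01 and 0.09 over all genes. The largest rise under TMT was that of Psmc1 (1.62-fold) and under TET that of Psmd8 (1.81-fold), and the largest falls were those of Psmg2 under TMT (1.35-fold) and Psmf1 under TET (2.12-fold). Called here means an adjusted p under 0.05 in limma's moderated linear model. Array weights gave 25 rises and 3 falls under TMT. Under TET, cyclic loess between arrays (added after the data were seen) gave 19 rises and 4 falls, quantile normalization again gave 14 rises and 6 falls, and centring on array medians gave 8 rises and 11 falls. Leaving out TET replicate 2 gave 7 rises under TET, and the median under TET was −0.01 to 0.10 when single arrays were left out. The median under TMT was 0.21 without TMT replicate 2.

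Signal strength moved with the difference from saline, above all in the TET arrays, whose interquartile range of signal was 3.45 to 3.55 against 3.83 to 3.88 in saline and 3.78 to 3.86 under TMT. In 36 of the 47 proteasome genes the saline signal lay in the brightest quintile of all genes. In that quintile the median difference over all genes was −0.06 under TMT and −0.24 under TET, and over the 36 proteasome genes it was 0.20 and 0.10. All 13 rises under TMT and 11 of the 12 under TET were in this quintile. Of all genes in it, 18% rose under TMT and 16.5% under TET, while 29.3% and 45.9% fell. Of the 10 proteasome genes that fell under TET, 3 were in the brightest quintile, 5 in the next and 2 in the middle one. The arrays also moved together: TMT replicate 2 gave the lowest value of its group in 29 of the 47 genes (37.1% of all genes) and TET replicate 1 in 27 (34.7% of all genes). Exactly equal deposited values were found in 1.34% to 3.54% of probe sets between groups and in 1.19% to 4.03% within groups. Their part in the results was not tested.

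Macrophage markers were bright and those of lymphocytes, mast cells and erythroid cells dim. Of 8 macrophage markers, 6 were in the brightest quintile in saline, and the mean log2 signal of the 8 was 12.50 to 12.56 in saline arrays, 12.32 to 12.64 under TMT and 12.28 to 12.42 under TET. The mean of 6 neutrophil markers was 7.85 to 8.01 in saline, 7.27 to 7.64 under TMT and 7.27 to 7.43 under TET. That of 5 stromal markers was 7.11 to 7.28, 7.17 to 7.65 and 7.13 to 7.61, and that of 3 megakaryocyte markers 8.70 to 8.73, 8.64 to 8.83 and 8.86 to 8.94. In 3 of 5 dim lists of other cells every TET array lay above every saline array. The mean of 3 B cell markers was 5.35 to 5.45 in saline and 5.65 to 5.83 under TET, that of 3 T cell markers 4.80 to 4.998 and 5.12 to 5.36, and that of 5 dendritic cell markers 5.46 to 5.65 and 5.70 to 6.04. In these lists 2, 2 and 3 genes rose under TET, where 25.1% to 39.4% of all genes in the 3 dimmest quintiles rose, and under TMT 1 T cell marker fell and no other passed. Mast cell and erythroid means were 3.79 to 5.01 in every array. Of the 8 macrophage markers 2 rose and 2 fell under TMT, and 1 rose and 4 fell under TET. The part of these shifts in the results below was not tested. RNA of whole cultures was measured, so fewer cells of a type and less RNA per cell cannot be told apart.

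**Figure D1:**
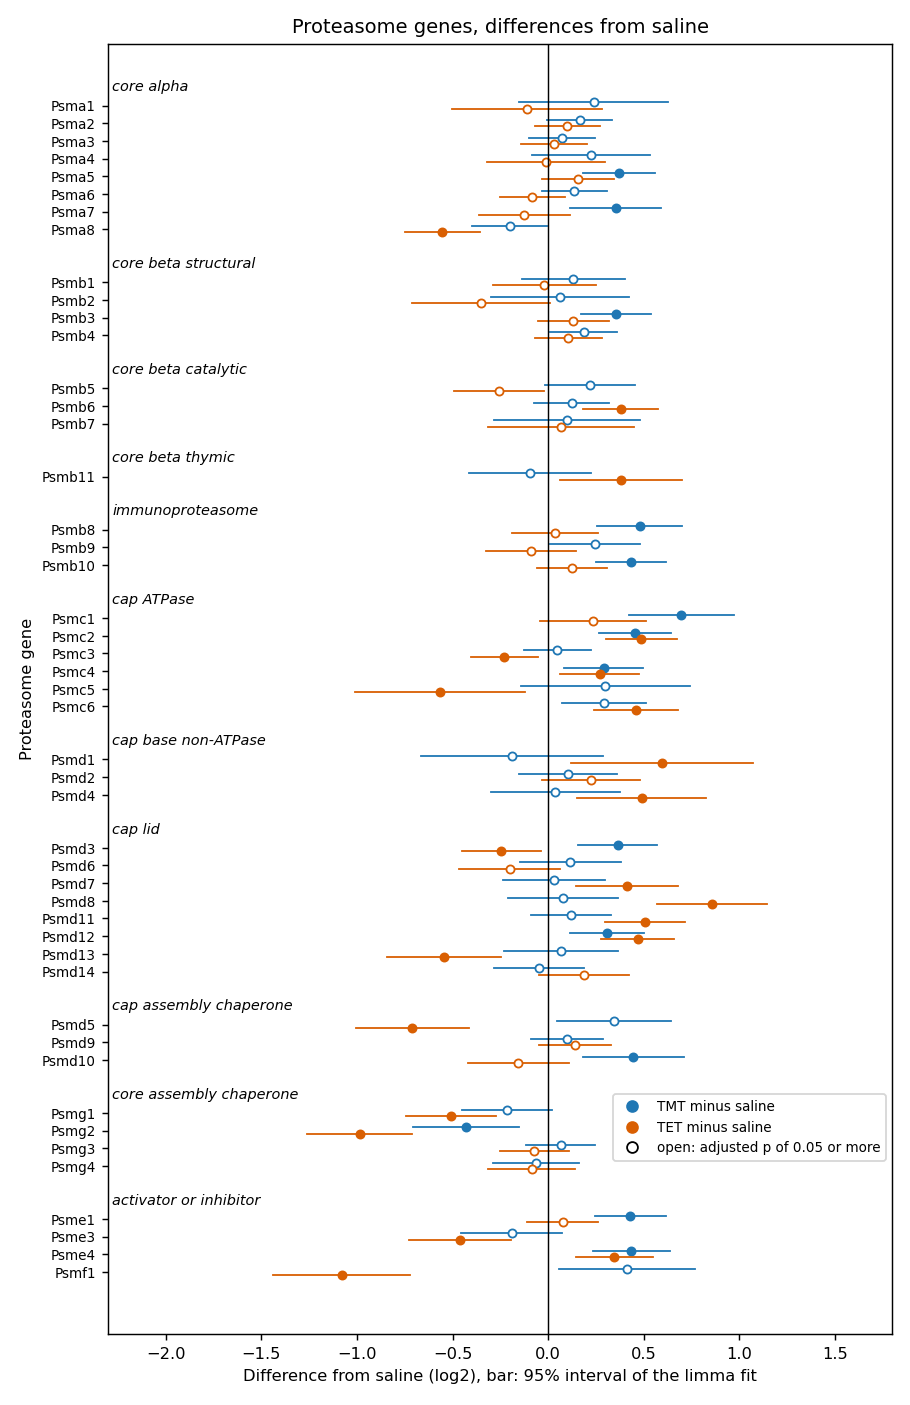
Difference from saline on the log2 scale (x axis) for each of the 47 proteasome genes (y axis), ordered by role, with TMT in blue and TET in orange. Points are differences of group means of 3 arrays, bars are 95% intervals of the limma fit, and open points did not pass; the structural cap genes spread to both sides under TET, from Psmc5 (−0.57) to Psmd8 (0.85).

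The alpha subunits form the outer rings that gate entry to the core. Of the 8, 2 rose under TMT and 1 fell under TET. For counts by role, here and below, all genes gave 14.3% risen and 13.4% fallen under TMT and 27.4% and 23.4% under TET. Psma5 gave log2 signals of 12.39, 12.53 and 12.58 in saline, 12.83, 12.91 and 12.87 under TMT and 12.70, 12.64 and 12.61 under TET. All TMT arrays and all TET arrays lay above saline, and the TET difference did not pass (0.16, SE 0.08, adjusted p = 0.15). Psma5 rose 1.29-fold under TMT (0.37, SE 0.08, adjusted p = 0.0077). Psma7 rose 1.28-fold under TMT (0.35, SE 0.11, adjusted p = 0.031), with the 3 TMT arrays above saline, and was −0.13 under TET. The TET arrays were lower than the TMT arrays for Psma7 (−0.48, SE 0.11, adjusted p = 0.0038). The rise of Psma7 was not kept without saline replicate 1, 2 or 3 or TMT replicate 1 or 3 (adjusted p 0.078 to 0.12, differences 0.26 to 0.36). Plain probe sets are those without the suffixes s_at, x_at and a_at. With plain probe sets alone Psma5 turned to −0.19 and Psma7 missed the threshold (adjusted p = 0.086). The plain probe set of Psma5 was dim (6.63 in saline), and its other a_at one was higher in all TMT arrays (0.33). With the mean over probe sets Psma5 missed the threshold (adjusted p = 0.14). Psma1, Psma2, Psma3, Psma4 and Psma6 passed in neither comparison, with differences of 0.07 to 0.24 under TMT and −0.11 to 0.10 under TET. The other 3 probe sets of Psma1 were higher in all TMT arrays (0.60 to 1.53). Of these, 2 dim ones (3.53 and 4.31 in saline) were lower in all TET arrays. With the mean over its probe sets Psma1 passed as risen under TMT (0.80) and as fallen under TET (−0.49, adjusted p = 0.0057). Psma3 and Psma6 (−1.38) passed as fallen under TET with that mean too. By array, Psma8 read 6.13, 6.07 and 5.94 in saline, 5.89, 5.81 and 5.85 under TMT and 5.56, 5.41 and 5.51 under TET (log2). The TET arrays of Psma8 were the lowest, at signals whose distance from background is unknown. Psma8, the alpha subunit of the testis, was dim and fell 1.47-fold under TET (−0.55, SE 0.09, adjusted p = 4.9e-04).

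Among the structural beta subunits Psmb3 rose 1.28-fold under TMT (0.35, SE 0.08, adjusted p = 0.0088). For Psmb3 the arrays gave 12.44, 12.45 and 12.39 in saline, 12.76, 12.85 and 12.73 under TMT and 12.63, 12.48 and 12.56 under TET on the log2 scale. In this probe set the 3 groups did not overlap for Psmb3, with TET between saline and TMT. In its plain one TET was below saline (10.04 in saline, 9.62 under TET) with overlapping arrays. The TET difference from saline did not pass (0.13, SE 0.08, adjusted p = 0.21). The rise of Psmb3 under TMT missed the threshold with the mean over its probe sets (adjusted p = 0.13) and with the plain one (adjusted p = 0.65). Psmb1, Psmb2 and Psmb4 passed in neither comparison. Psmb4 was higher in all TMT arrays (0.19, adjusted p = 0.12), and Psmb2 was lower in all TET arrays (−0.35, adjusted p = 0.093). Without TET replicate 2 Psmb2 passed as lower under TET (−0.48, adjusted p = 0.039).

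Of the 3 constitutive catalytic subunits 1 passed, and only under TET. The log2 signal of Psmb6 was 12.61, 12.53 and 12.59 in saline, 12.72, 12.60 and 12.77 under TMT and 12.86, 13.03 and 12.98 under TET. The TET arrays of Psmb6 lay above all others, while the TMT arrays overlapped saline (0.12, SE 0.09, adjusted p = 0.39). Psmb6, which cuts after acidic residues, rose 1.30-fold under TET (0.38, SE 0.09, adjusted p = 0.0050). Psmb5 gave log2 signals of 11.50, 11.47 and 11.53 in saline, 11.67, 11.61 and 11.89 under TMT and 11.10, 11.25 and 11.39 under TET. The TMT arrays lay above saline and the TET arrays below, and the 2 treated groups differed (−0.48, SE 0.11, adjusted p = 0.0037). Psmb5, the subunit with chymotrypsin-like activity, did not pass against saline under TMT (0.22, SE 0.11, adjusted p = 0.17) or TET (−0.26, SE 0.11, adjusted p = 0.066). Without TET replicate 3 the TET difference of Psmb5 passed (−0.33, adjusted p = 0.028). By array, Psmb7 read 11.02, 11.00 and 11.11 in saline, 11.10, 11.03 and 11.28 under TMT and 10.67, 11.22 and 11.44 under TET (log2). Its TET arrays spread over 0.77 log2 units and overlapped both other groups. Psmb7, the subunit with trypsin-like activity, did not pass under TMT (0.10, SE 0.17, adjusted p = 0.77) or TET (0.07, SE 0.17, adjusted p = 0.76). Psmb11, the beta subunit of the thymic cortex, lay in the dimmest quintile of genes. Its call under TET (0.38, SE 0.14, adjusted p = 0.047) rests on overlapping arrays of 4.80 to 5.24 against 4.41 to 4.81 in saline. It was not kept without saline replicate 1 or 2 or TET replicate 1 or 2 (adjusted p 0.071 to 0.17, differences 0.26 to 0.40). It also missed the threshold after quantile normalization again, array medians centred, array weights, 6 arrays alone or cyclic loess (adjusted p 0.069 to 0.32).

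All 3 immunoproteasome subunits were higher in every TMT array than in saline, and 2 of them passed. Of all genes, 23.7% were higher in every TMT array and 14.3% rose. Under TET 0 of 3 immunoproteasome subunits passed, also at an unadjusted p under 0.05 in limma. For Psmb8 the arrays gave 12.79, 12.69 and 12.68 in saline, 13.27, 13.06 and 13.27 under TMT and 12.61, 12.79 and 12.86 under TET on the log2 scale. Every TMT array of Psmb8 lay above every saline and TET array. Psmb8, which takes the place of Psmb5, rose 1.39-fold under TMT (0.48, SE 0.10, adjusted p = 0.0049). Under TET Psmb8 was 0.03 (adjusted p = 0.79, 95% interval −0.19 to 0.26), and the TET arrays were lower than the TMT arrays (−0.44, SE 0.10, adjusted p = 0.0043). The log2 signal of Psmb10 was 12.62, 12.63 and 12.61 in saline, 13.11, 12.96 and 13.10 under TMT and 12.70, 12.78 and 12.77 under TET. The 3 groups of Psmb10 did not overlap. Psmb10, which takes the place of Psmb7, rose 1.35-fold under TMT (0.43, SE 0.08, adjusted p = 0.0025). The difference under TET did not pass (0.13, SE 0.08, adjusted p = 0.22), and TET was lower than TMT (−0.31, SE 0.08, adjusted p = 0.010). Psmb9 gave log2 signals of 12.20, 12.15 and 12.17 in saline, 12.42, 12.29 and 12.54 under TMT and 11.90, 12.14 and 12.20 under TET. Its TMT arrays all lay above saline, and its TET arrays overlapped saline. Psmb9, which takes the place of Psmb6, did not pass under TMT (0.24, SE 0.10, adjusted p = 0.12) or TET (−0.09, SE 0.10, adjusted p = 0.49). Psmb8 and Psmb10 passed under TMT in each of their 16 and 17 alternatives. Psmb9 passed under TMT after quantile normalization again, with array weights and after cyclic loess (adjusted p = 0.042, 0.0038 and 0.038), and Psmb10 passed as risen under TET after cyclic loess (0.23, adjusted p = 0.030).

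**Figure D2:**
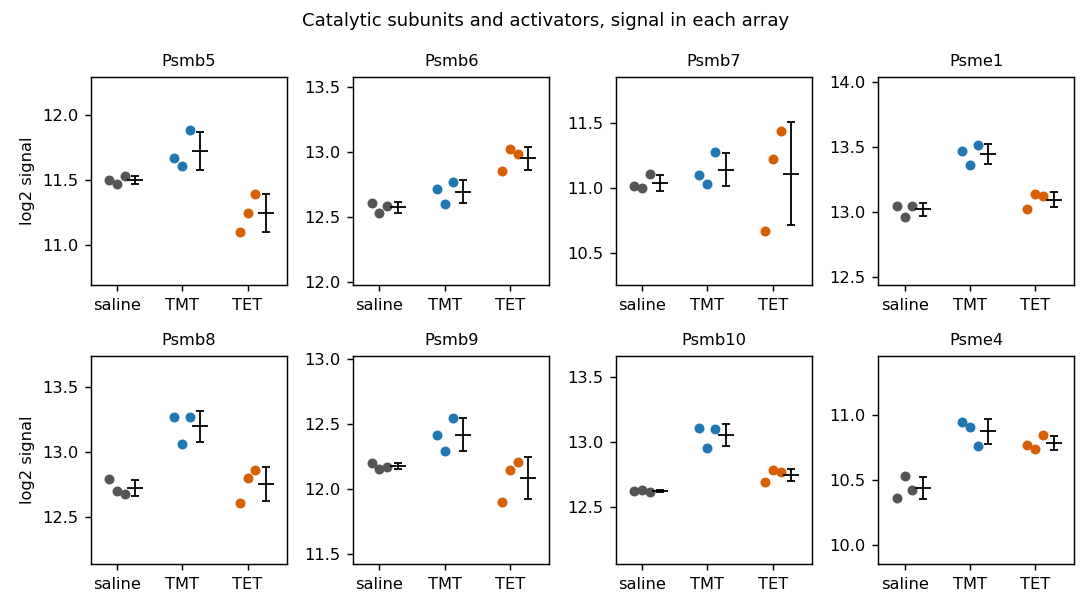
Log2 signal (y axis, every panel 1.6 log2 units high) of the 3 constitutive and 3 immunoproteasome catalytic subunits and of the activators Psme1 and Psme4 in each array, by group (x axis). Points are arrays, and the bar beside them is the mean with its SD; Psmb8, Psmb10 and Psme1 show the TMT arrays above both other groups, and Psmb6 shows the TET arrays highest.

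The exchange pairs were also compared within each array, as the log2 signal of the immunoproteasome subunit minus that of the subunit it replaces. The size of such a difference depends on the 2 probe sets, and only its change between groups is read. Psmb8 minus Psmb5 was 1.28, 1.22 and 1.14 in saline, 1.59, 1.45 and 1.38 under TMT and 1.51, 1.55 and 1.47 under TET. It was higher than saline in all TMT arrays and all TET arrays, by 0.26 and 0.29. Psmb9 minus Psmb6 was −0.41, −0.38 and −0.42 in saline, −0.30, −0.31 and −0.23 under TMT and −0.95, −0.88 and −0.78 under TET. All TMT arrays lay above saline, by 0.12 on average, and all TET arrays below, by 0.47. Psmb10 minus Psmb7 was 1.61, 1.63 and 1.50 in saline, 2.01, 1.92 and 1.82 under TMT and 2.03, 1.56 and 1.33 under TET. The TMT arrays lay above saline by 0.33, and the TET arrays spread on both sides of it. The exact two-sided permutation p of each non-overlapping contrast was 0.1, the smallest that 3 arrays against 3 can give, and 0.15 after adjustment over the 9 contrasts. Psmb10 minus Psmb7 under TET had an exact p of 0.90. With the mean over all probe sets of each gene, Psmb8 minus Psmb5 moved to 0.38 under TMT and 0.37 under TET. That mean takes in a dim x_at probe set of Psmb8 (5.03 in saline), while Psmb5 has 1 probe set.

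**Figure D3:**
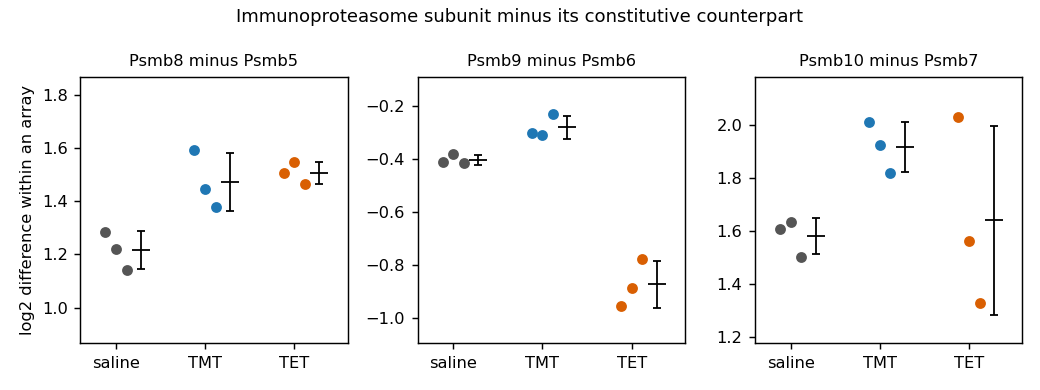
Log2 signal of an immunoproteasome subunit minus that of its constitutive counterpart in each array (y axis, every panel 1 log2 unit high), by group (x axis). Points are arrays, and the bar beside them is the mean with its SD; Psmb9 minus Psmb6 lies lowest under TET, at −0.95 to −0.78, against −0.42 to −0.38 in saline.

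The ATPases of the cap, which unfold substrates, changed in both comparisons. Of the 6, 3 rose under TMT, and 3 rose and 2 fell under TET. By array, Psmc1 read 11.31, 11.11 and 11.21 in saline, 11.93, 11.70 and 12.10 under TMT and 11.27, 11.52 and 11.55 under TET (log2). Its TMT arrays lay above every other array. Psmc1 rose 1.62-fold under TMT (0.70, SE 0.12, adjusted p = 0.0017). Under TET it did not pass (0.23, SE 0.12, adjusted p = 0.14), and TET was lower than TMT (−0.46, SE 0.12, adjusted p = 0.010). For Psmc2 the arrays gave 12.09, 12.14 and 12.17 in saline, 12.54, 12.66 and 12.56 under TMT and 12.58, 12.57 and 12.71 under TET on the log2 scale. The TMT and TET arrays of Psmc2 overlapped each other and lay above saline. Psmc2 rose by almost the same amount under TMT (0.45, SE 0.08, adjusted p = 0.0022) and TET (0.49, SE 0.08, adjusted p = 8.1e-04). Psmc4 rose 1.22-fold under TMT (0.29, SE 0.09, adjusted p = 0.040) and 1.21-fold under TET (0.27, SE 0.09, adjusted p = 0.033). The rise of Psmc4 under TMT was not kept without saline replicate 1 or 3 or TMT replicate 1 or 2 (adjusted p 0.11 to 0.14, differences 0.25 to 0.28). Under TET it was not kept without saline replicate 1 or 3 or TET replicate 1 or 2 (adjusted p 0.055 to 0.11, differences 0.23 to 0.27). Psmc6 rose 1.37-fold under TET (0.46, SE 0.10, adjusted p = 0.0032) and just missed the threshold under TMT (0.29, SE 0.10, adjusted p = 0.051), where it passed without TMT replicate 3 (0.36, adjusted p = 0.036). Psmc3 fell 1.17-fold under TET (−0.23, SE 0.08, adjusted p = 0.033) and Psmc5 1.48-fold (−0.57, SE 0.20, adjusted p = 0.036), with all TET arrays below saline in both genes. Neither call was kept without saline replicate 1, 2 or 3 or TET replicate 1 or 2 (adjusted p 0.064 to 0.088 and 0.056 to 0.12, differences −0.23 to −0.21 and −0.62 to −0.36). The rise of Psmc6 turned to −0.77 with the mean over its probe sets and −1.52 in its plain one. Psmc2 missed the threshold with the mean over its probe sets (adjusted p = 0.087 and 0.055). Psmc4 missed it with its plain probe set (adjusted p = 0.16 and 0.20) and with array medians centred (adjusted p = 0.054 and 0.12). Psmc3 and Psmc5 missed it after quantile normalization again (adjusted p = 0.23 and 0.11), Psmc3 with 6 arrays alone (adjusted p = 0.053), and both after cyclic loess (adjusted p = 0.80 and 0.23).

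The other subunits of the cap base hold the ring together and receive ubiquitinated substrates. Psmd1, a large scaffold subunit, rose 1.51-fold under TET (0.60, SE 0.21, adjusted p = 0.039) and Psmd4, a ubiquitin receptor, 1.40-fold (0.49, SE 0.15, adjusted p = 0.022). All TET arrays lay above saline in both genes, while the TMT arrays overlapped saline. TMT replicate 2 gave the lowest value of all 9 arrays in both, 9.97 for Psmd1 and 11.17 for Psmd4. Psmd2, the other scaffold subunit, lay above saline in all TET arrays and did not pass (0.22, SE 0.11, adjusted p = 0.13). The rise of Psmd1 was not kept without saline replicate 1, 2 or 3 or TET replicate 2 or 3 (adjusted p 0.058 to 0.13, differences 0.48 to 0.67). That of Psmd4 was not kept without saline replicate 2 or 3 or TET replicate 2 or 3 (adjusted p 0.053 to 0.071, differences 0.38 to 0.50). With array medians centred both missed the threshold (adjusted p = 0.076 and 0.055), and Psmd4 missed it with the mean over its probe sets (adjusted p = 0.055).

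The lid of the cap removes ubiquitin chains from the substrate. Of its 8 genes under the symbol rule, 2 rose under TMT, and 4 rose and 2 fell under TET. The log2 signal of Psmd8 was 11.63, 11.43 and 11.49 in saline, 11.68, 11.34 and 11.76 under TMT and 12.21, 12.51 and 12.39 under TET. Its TET arrays lay above every other array, and its TMT arrays overlapped saline (0.08, SE 0.13, adjusted p = 0.75). Psmd8 rose 1.81-fold under TET (0.85, SE 0.13, adjusted p = 3.5e-04), the largest rise of a proteasome gene there. TET was higher than TMT for Psmd8 (0.78, SE 0.13, adjusted p = 6.1e-04). Psmd11 gave log2 signals of 11.72, 11.78 and 11.81 in saline, 11.87, 12.03 and 11.75 under TMT and 12.21, 12.25 and 12.35 under TET. The TET arrays of Psmd11 were the highest, and the TMT arrays overlapped saline. Psmd11 rose 1.42-fold under TET (0.50, SE 0.09, adjusted p = 0.0014). By array, Psmd12 read 11.15, 11.07 and 11.12 in saline, 11.42, 11.36 and 11.48 under TMT and 11.47, 11.63 and 11.64 under TET (log2). Both treated groups of Psmd12 lay above saline. Psmd12 rose under TET (0.47, SE 0.09, adjusted p = 0.0013) and under TMT (0.31, SE 0.09, adjusted p = 0.022). Psmd7, the partner of the deubiquitinase, rose 1.33-fold under TET (0.41, SE 0.12, adjusted p = 0.016). The deubiquitinase gene itself, Psmd14, did not pass (0.18, SE 0.11, adjusted p = 0.17). Psmd13 fell 1.46-fold under TET (−0.55, SE 0.13, adjusted p = 0.0066). Psmd3 rose 1.29-fold under TMT (0.36, SE 0.09, adjusted p = 0.013) and fell 1.19-fold under TET (−0.24, SE 0.09, adjusted p = 0.048), and the treated groups differed (−0.61, SE 0.09, adjusted p = 3.4e-04). Psmd6 passed in neither comparison with its chosen probe set, though all TET arrays lay below saline (−0.20, adjusted p = 0.18). It passed as fallen under TET in its plain probe set (−0.47) and with the mean over its probe sets. That plain probe set read 11.46 in saline and was also lower in all TMT arrays, without passing (−0.23).

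Several lid calls depended on single arrays or on scaling. The rise of Psmd12 under TMT was not kept without saline replicate 1, 2 or 3 or TMT replicate 1 or 3 (adjusted p 0.052 to 0.084, differences 0.28 to 0.33), and that of Psmd3 not without TMT replicate 3 (0.33, adjusted p = 0.054). The rise of Psmd7 under TET was not kept without saline replicate 2 or 3 or TET replicate 2 (adjusted p 0.052 to 0.054, differences 0.34 to 0.40). The fall of Psmd3 under TET was not kept without saline replicate 1, 2 or 3 or TET replicate 3 (adjusted p 0.10 to 0.13, differences −0.25 to −0.17), cyclic loess turned it to 0.01 (adjusted p = 0.93), and it missed the threshold in 6 further settings (adjusted p 0.050 to 0.41). The fall of Psmd13 missed the threshold after cyclic loess (adjusted p = 0.10), was 0.03 with the mean over its probe sets and turned to 0.69 in its brightest plain probe set. The rise of Psmd11 missed it in its brightest plain probe set (adjusted p = 0.32).

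Of the 3 chaperones that build the cap 1 rose under TMT and 1 fell under TET. For Psmd5 the arrays gave 9.84, 9.89 and 9.78 in saline, 10.25, 9.93 and 10.37 under TMT and 9.10, 9.33 and 8.95 under TET on the log2 scale. The TMT arrays of Psmd5 lay above saline without passing (0.34, SE 0.13, adjusted p = 0.086) and passed without TMT replicate 2 (0.47, adjusted p = 0.019). Psmd5 fell 1.64-fold under TET (−0.71, SE 0.13, adjusted p = 0.0014). TET was 2.08-fold lower than TMT for Psmd5 (−1.05, SE 0.13, adjusted p = 9.5e-05). Psmd10, also known as gankyrin, rose 1.36-fold under TMT (0.45, SE 0.12, adjusted p = 0.017) and did not pass under TET (−0.16, SE 0.12, adjusted p = 0.29). The rise of Psmd10 was not kept without saline replicate 2 or 3 or TMT replicate 1 or 3 (adjusted p 0.054 to 0.069, differences 0.38 to 0.45). Psmd9 passed in neither comparison.

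All 4 chaperones that assemble the core had mean differences below 0 under TET, and 2 of them passed, but Psmg3 and Psmg4 were above 0 after quantile normalization again (0.11 and 0.12) and after cyclic loess (0.21 and 0.19). The log2 signal of Psmg2 was 7.57, 7.60 and 7.51 in saline, 6.96, 7.30 and 7.14 under TMT and 6.78, 6.36 and 6.58 under TET. The 3 groups of Psmg2 did not overlap. Psmg2, a partner of Psmg1 in assembling the alpha ring, fell 1.98-fold under TET (−0.99, SE 0.12, adjusted p = 1.0e-04) and 1.35-fold under TMT (−0.43, SE 0.12, adjusted p = 0.025). Psmg1 gave log2 signals of 8.35, 8.42 and 8.35 in saline, 8.01, 8.20 and 8.26 under TMT and 7.88, 8.01 and 7.70 under TET. Both treated groups of Psmg1 lay below saline, and after cyclic loess its fall under TET did not pass (adjusted p = 0.074). Psmg1 fell 1.43-fold under TET (−0.51, SE 0.11, adjusted p = 0.0026) and did not pass under TMT (−0.22, SE 0.11, adjusted p = 0.18). Psmg3 and Psmg4, which act together, passed in neither comparison. By array, Psmg3 read 9.16, 9.22 and 9.22 in saline, 9.33, 9.25 and 9.21 under TMT and 9.14, 9.06 and 9.17 under TET (log2). For Psmg4 the arrays gave 8.80, 8.90 and 8.90 in saline, 8.73, 8.91 and 8.77 under TMT and 8.94, 8.79 and 8.62 under TET on the log2 scale. Both treated groups overlapped saline in both genes, with differences of −0.09 to 0.06, and for Psmg3 the TET arrays lay below the TMT arrays. The fall of Psmg2 under TMT was not kept without saline replicate 1, 2 or 3 or TMT replicate 1 or 3 (adjusted p 0.058 to 0.11, differences −0.46 to −0.34), nor with the mean over its probe sets (adjusted p = 0.20).

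Activators that open the core in place of the cap rose under TMT in 2 of 3 genes. The log2 signal of Psme1 was 13.05, 12.97 and 13.05 in saline, 13.47, 13.37 and 13.52 under TMT and 13.03, 13.14 and 13.13 under TET. The TMT arrays of Psme1 lay above every other array, and the TET difference did not pass (0.08, SE 0.08, adjusted p = 0.47). Psme1, a subunit of the interferon-inducible activator PA28, rose 1.35-fold under TMT (0.43, SE 0.08, adjusted p = 0.0031). TET was lower than TMT for Psme1 (−0.35, SE 0.08, adjusted p = 0.0054). Psme4 gave log2 signals of 10.36, 10.53 and 10.43 in saline, 10.95, 10.91 and 10.76 under TMT and 10.77, 10.74 and 10.85 under TET. Both treated groups of Psme4 lay above saline, and with the mean over its probe sets the rise under TET missed the threshold (adjusted p = 0.29). Psme4, a large nuclear activator, rose under TMT (0.44, SE 0.09, adjusted p = 0.0043) and TET (0.35, SE 0.09, adjusted p = 0.0092). By array, Psme3 read 10.78, 10.76 and 10.73 in saline, 10.57, 10.55 and 10.57 under TMT and 10.45, 10.43 and 10.00 under TET (log2). TET replicate 3, at 10.00, stood apart from the other TET arrays. Psme3, the nuclear relative of Psme1, fell 1.38-fold under TET (−0.46, SE 0.12, adjusted p = 0.0089) and did not pass under TMT (−0.19, SE 0.12, adjusted p = 0.30). The fall of Psme3 did not pass after quantile normalization again (adjusted p = 0.050) or after cyclic loess (adjusted p = 0.18).

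For Psmf1 the arrays gave 8.62, 8.80 and 8.43 in saline, 8.95, 9.10 and 9.04 under TMT and 7.59, 7.84 and 7.18 under TET on the log2 scale. The TET arrays of Psmf1 lay below every other array, and the TMT arrays lay above saline without passing (0.41, SE 0.16, adjusted p = 0.087). Psmf1, which encodes the proteasome inhibitor and binding partner PI31, fell 2.12-fold under TET (−1.08, SE 0.16, adjusted p = 3.1e-04). TET was 2.82-fold lower than TMT (−1.49, SE 0.16, adjusted p = 3.1e-05), the largest difference between treated groups among these genes. Of the other 3 probe sets of Psmf1, 2 had all TET arrays below saline, and the brightest of them, at 8.08 in saline, was 8.01 under TET. With that probe set, used when those that may cross-hybridise were left out, the fall of Psmf1 was not kept (−0.07, adjusted p = 0.69), nor was the difference between the treated groups (adjusted p = 0.14).

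**Figure D4:**
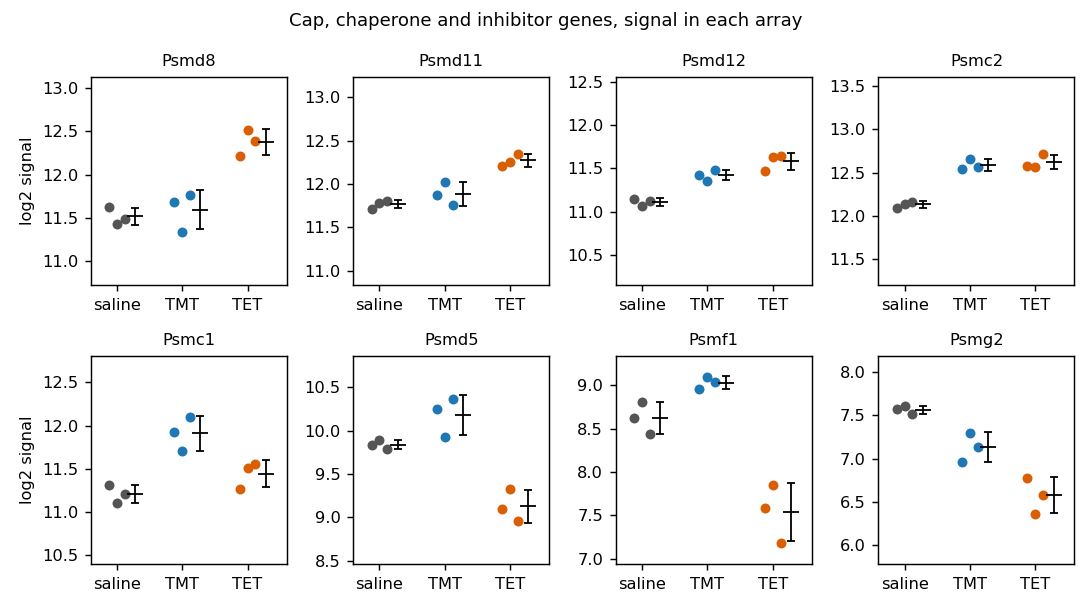
Log2 signal (y axis, every panel 2.4 log2 units high) of 5 cap genes, the cap chaperone Psmd5, the inhibitor Psmf1 and the core chaperone Psmg2 in each array, by group (x axis). Points are arrays, and the bar beside them is the mean with its SD; Psmd8, Psmd11 and Psmd12 have the highest means under TET, and Psmd5, Psmf1 and Psmg2 the lowest.

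In both comparisons with saline, which share the saline arrays, 17 of the 47 genes did not pass. Psmc2, Psmc4, Psmd12 and Psme4 rose in both, Psmg2 fell in both, and Psmd3 rose under TMT and fell under TET. Of the genes that rose under TMT, 8 did not pass under TET, namely Psma5, Psma7, Psmb3, Psmb8, Psmb10, Psmc1, Psmd10 and Psme1. Of these, Psma5, Psmb3, Psmb10 and Psmc1 passed as risen under TET after cyclic loess (adjusted p = 0.035, 0.048, 0.030 and 0.011), and Psmc1 also after quantile normalization again (adjusted p = 0.025). In the direct test TET was lower than TMT in 20 of the 47 genes and higher in 7 (57.4% against 51.8% of all genes; 42.6% lower against 23.7%, and 14.9% higher against 28.1%). Arrays of these groups did not overlap in 57% of all genes. Shares of all genes mix bright and dim ones, and 36 of the proteasome genes were in the brightest quintile. There the median over all genes was −0.06 under TMT and −0.24 under TET. Shares within that quintile were not taken for TET against TMT. After cyclic loess 15 were lower and 9 higher. The count of genes higher under TET than TMT was 3 without TMT replicate 2 or without TET replicate 2. By role, 1 of 15 core genes (alpha and constitutive beta, without Psmb11) rose and 1 fell under TET (13.3%), and 9 of 17 structural cap genes rose and 4 fell (76.5%), against 50.8% of all genes. Under TMT 3 core genes (20%) and 5 cap genes (29.4%) rose, and 27.8% of all genes changed. Core and cap were not compared by a test. The core gene that fell under TET was the dim Psma8, and the one that rose was Psmb6. Both calls passed in every alternative. Of the cap calls under TET only those of Psmd8 and Psmd12 did so, and Psmc6 and Psmd13 turned sign in other probe sets. Psma1, Psma3 and Psma6 passed as fallen under TET with the mean over their probe sets, and so did Psmd6 of the cap.

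Promoter sequences of the proteasome genes were read to show what lies before their start sites. RefSeq promoters (GRCm38.p6) were found for 39 of the 47 genes, and the 250 bases before each start were searched on both strands for the antioxidant response element (TGACNNNGC), the interferon response element (GAAA, NN, GAAA), the heat shock element (GAA, NN, TTC, NN, GAA) and the CHOP-ATF4 element (TGATGNAA), with N for any base. No matches overlapped each other in these genes. The antioxidant element, whose letters are bound by factors of the NRF1 and NRF2 family, was held by 5 of the 39 genes (12.8%, against 11.5% of all 27025 genes with a promoter in the table). The interferon element was held by 3 genes (7.69% against 3.46%), the CHOP-ATF4 element by 1 (2.56% against 3.91%) and the heat shock element by 0 (0.514% of all genes). The 5 genes with the antioxidant element were Psmb5, Psmb6, Psmc6, Psmd9 and Psmd12, of which Psmb6, Psmc6 and Psmd12 rose under TET, 3 of the 11 risen genes with a promoter. The rise of Psmc6 turned to −0.77 and −1.52 with other probe sets. A match is a description of letters and not a binding site. Psmb5 and Psmd9 hold the element too and did not pass under TET (−0.26 and 0.14). Windows are shown only for the 3 genes that held the element and rose under TET. They run 5′ to 3′ on the strand of the gene, with the antioxidant element in capitals. Counted from the start site, it begins at −9 in Psmb6, at −227 in Psmc6 and at −247 in Psmd12, and it lies on the opposite strand in the last pair.
Psmb6 (chr11:70525107-70525356, plus strand): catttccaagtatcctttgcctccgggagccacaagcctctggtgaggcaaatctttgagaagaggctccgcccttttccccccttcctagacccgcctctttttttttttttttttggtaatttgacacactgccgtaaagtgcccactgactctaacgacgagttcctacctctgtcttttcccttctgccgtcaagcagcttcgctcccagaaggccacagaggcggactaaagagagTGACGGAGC
Psmc6 (chr14:45329574-45329823, plus strand): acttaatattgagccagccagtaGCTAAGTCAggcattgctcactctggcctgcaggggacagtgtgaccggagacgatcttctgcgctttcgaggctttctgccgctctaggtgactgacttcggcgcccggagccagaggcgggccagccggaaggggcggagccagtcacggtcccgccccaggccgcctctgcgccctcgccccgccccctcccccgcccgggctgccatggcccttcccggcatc
Psmd12 (chr11:107479278-107479527, plus strand): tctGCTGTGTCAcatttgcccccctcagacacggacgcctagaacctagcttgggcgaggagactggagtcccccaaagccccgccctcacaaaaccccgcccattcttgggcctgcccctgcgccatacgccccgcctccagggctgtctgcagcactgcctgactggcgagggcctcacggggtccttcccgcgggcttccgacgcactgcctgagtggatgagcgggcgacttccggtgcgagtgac

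The 3 genes with the interferon element were Psmb3, Psmd4 and Psmd9, and none of the genes encoding immunoproteasome subunits held it in this window. The windows of Psmb8, Psmb10 and Psme1, which rose under TMT and did not pass under TET (Psmb10 passed there after cyclic loess, adjusted p = 0.030), are shown in the same way and hold 0 matches to the 4 motifs.
Psmb8 (chr17:34197945-34198194, plus strand): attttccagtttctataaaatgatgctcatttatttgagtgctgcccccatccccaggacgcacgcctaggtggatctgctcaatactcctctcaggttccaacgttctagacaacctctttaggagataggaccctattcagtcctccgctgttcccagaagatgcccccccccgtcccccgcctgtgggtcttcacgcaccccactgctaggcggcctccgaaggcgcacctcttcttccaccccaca
Psmb10 (chr8:105938393-105938642, minus strand): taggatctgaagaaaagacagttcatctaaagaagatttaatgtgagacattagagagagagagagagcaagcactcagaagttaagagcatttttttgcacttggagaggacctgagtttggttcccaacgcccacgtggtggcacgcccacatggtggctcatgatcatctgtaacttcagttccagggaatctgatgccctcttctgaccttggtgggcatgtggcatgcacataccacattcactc
Psme1 (chr14:55578244-55578493, plus strand): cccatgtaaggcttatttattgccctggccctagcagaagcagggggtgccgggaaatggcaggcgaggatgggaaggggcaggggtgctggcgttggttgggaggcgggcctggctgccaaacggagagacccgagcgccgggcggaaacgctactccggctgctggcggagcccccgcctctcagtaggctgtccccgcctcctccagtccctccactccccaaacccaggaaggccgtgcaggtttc

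The 26 genes with several probe sets show how far a gene's value rests on the one chosen. Under TMT 9 called genes had other probe sets, and in 6 of them every other probe set had the same sign. Under TET 11 had others, and in 3 every other probe set had the same sign. Psmc6 was the plainest case. Its chosen probe set went from 11.52 to 11.97 under TET, while the others went from 8.84 to 7.60 and from 6.15 to 4.62, with all 3 TET arrays below saline in both. Psma3 and Psma6 differed by 0.03 and −0.08 under TET in their chosen probe sets, and dimmer ones were lower in all TET arrays, by −1.27 on the log2 scale in Psma3 and from 6.58 to 2.88 in Psma6. Psme4 was higher under TMT in all 6 of its probe sets, with no overlap with saline in 4. Psmd11 had 8 probe sets, 7 of them higher under TET, and one of them went from 3.70 to 6.99. Psmd13 was lower in its chosen probe set and went from 4.80 to 5.49 in a dim one. Why probe sets of a gene differ was not tested. When probe sets with the suffixes s_at, x_at or a_at were left out, 6 genes rose and 2 fell under TMT among 41 measured. Leaving out only those with s_at or x_at, which can cross-hybridise, gave 13 rises and 1 fall (chosen after the data were seen).

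**Figure D5:**
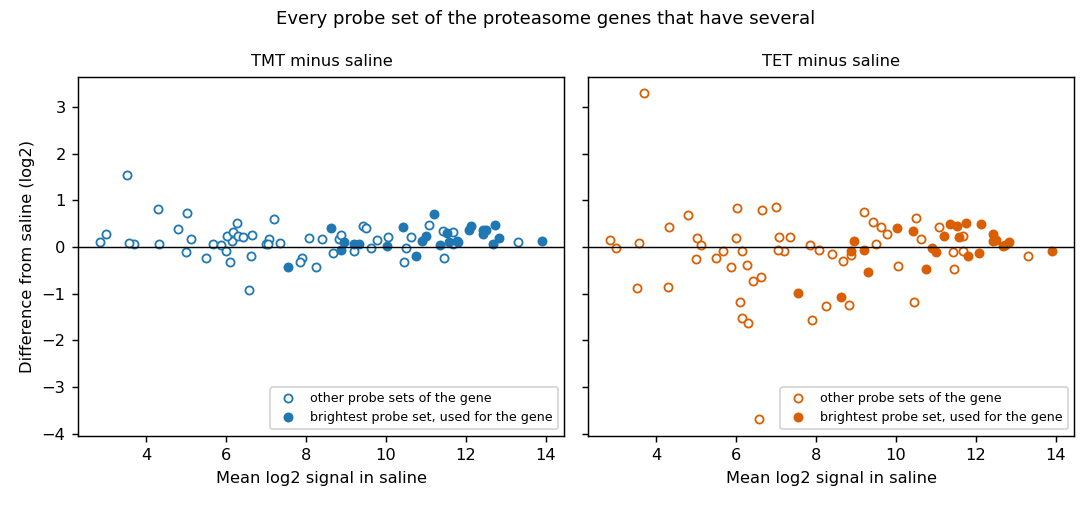
Difference from saline on the log2 scale (y axis) against mean log2 signal in saline (x axis) for every probe set of the 26 proteasome genes with several, under TMT (left) and TET (right). Filled points are the brightest probe set of a gene and open points the others; the dimmer probe sets spread more widely under TET, down to −3.70 in Psma6 and up to 3.29 in Psmd11.

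Several genes listed as proteasome-associated, outside the symbol rule, changed. Of the 13 listed, 3 rose and 1 fell under TMT, and 6 rose and 1 fell under TET (medians 0.08 and 0.27). The list takes in Sem1, itself a subunit of the cap lid, which rose under TET (0.27, SE 0.07, adjusted p = 0.012). It also holds Psmc3ip, a recombination factor, which passed in neither comparison. For this list and those below, all genes gave 14.3% risen and 13.4% fallen under TMT and 27.4% and 23.4% under TET. The log2 signal of Zfand2a was 9.08, 8.98 and 8.90 in saline, 10.86, 10.57 and 10.91 under TMT and 12.65, 12.89 and 13.00 under TET. The 3 groups of Zfand2a did not overlap. Zfand2a, an arsenite- and heat-inducible protein that associates with the proteasome, rose 3.46-fold under TMT and 14.5-fold under TET (adjusted p = 3.4e-06 and 1.1e-08). Akirin2, which carries proteasomes into the nucleus, rose 1.36-fold under TMT and 1.72-fold under TET (adjusted p = 0.0042 and 6.6e-05). Zfand5, a proteasome activator, rose 1.5-fold under TET (0.58, SE 0.08, adjusted p = 1.6e-04). Ube3c, a ligase that works on the proteasome, fell 1.82-fold under TET (−0.86, SE 0.09, adjusted p = 4.1e-05). Pomp, the maturation chaperone of the core, did not pass under TMT (0.27, SE 0.09, adjusted p = 0.051) or TET (0.03, SE 0.09, adjusted p = 0.81).

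Upstream of degradation, ubiquitin-handling genes mostly fell under TET. Of 10 measured genes of ubiquitin activation, conjugation and recycling, 2 rose and 2 fell under TMT, and 1 rose and 7 fell under TET (medians −0.08 and −0.49). Ube2d1, a ubiquitin-conjugating enzyme, fell 1.42-fold under TMT (−0.51, SE 0.10, adjusted p = 0.0029) and 3.14-fold under TET (−1.65, SE 0.10, adjusted p = 5.4e-07). Ube2g2, a conjugating enzyme of endoplasmic reticulum degradation, rose 2.06-fold under TET (1.04, SE 0.08, adjusted p = 4.7e-06). Uba6, an activating enzyme, fell 1.59-fold under TET and Uba3, the activating subunit for NEDD8, 1.56-fold (adjusted p = 1.6e-04 and 2.4e-04). Of 15 genes listed as shuttle and extraction factors, 1 rose and 2 fell under TMT, and 4 rose and 5 fell under TET. The list takes in Bag3 and Sqstm1, which act in autophagy. Sqstm1 was 1 of the 2 that fell under TMT (−0.96, SE 0.22, adjusted p = 0.0078). Bag3, a co-chaperone that directs clients to autophagy, rose 7.29-fold under TET (2.87, SE 0.12, adjusted p = 6.0e-08) and was −0.01 under TMT. Ubxn7 rose 2.39-fold and Ubxn4 2.1-fold under TET (adjusted p = 7.3e-05 and 2.1e-06). Ubqln1, a shuttle, fell 1.87-fold under TET in an s_at probe set (−0.90), and rose by 0.70 in the probe set used when those were left out (adjusted p = 0.0027).

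Of 13 known regulators of proteasome transcription 4 rose and 5 fell in each comparison with saline. Nfe2l1 gave log2 signals of 10.57, 10.25 and 10.21 in saline, 10.72, 10.31 and 10.93 under TMT and 9.10, 9.46 and 9.93 under TET. The TET arrays of Nfe2l1 lay below all saline arrays, and the TMT arrays overlapped saline. Nfe2l1, encoding NRF1, the factor that induces proteasome genes when degradation falls behind, fell 1.8-fold under TET (−0.84, SE 0.22, adjusted p = 0.0089) and did not pass under TMT (0.31, SE 0.22, adjusted p = 0.37). Mafg, a small partner of NRF1 and NRF2, rose 3.64-fold under TMT and 4.20-fold under TET (adjusted p = 9.7e-06 and 2.7e-06). Maff, another small partner, fell 2.13-fold under TMT and rose 1.73-fold under TET (adjusted p = 3.2e-05 and 1.7e-04). Bach1, a repressor at the same elements, fell 2.51-fold under TMT (−1.33, SE 0.13, adjusted p = 2.8e-05) and did not pass under TET (−0.15, SE 0.13, adjusted p = 0.36). Nfyb, a subunit of a promoter-binding factor, fell 1.90-fold under TMT and 2.08-fold under TET (adjusted p = 5.6e-05 and 1.4e-05).

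Genes that induce the immunoproteasome or use its peptides were counted in the same way. Of 13 inducers, namely interferon receptors, kinases and factors, 3 rose and 6 fell under TMT, and 1 rose and 9 fell under TET (medians −0.35 and −0.43). Of the 13, 12 were in the brightest quintile, where 29.3% of all genes fell under TMT and 45.9% under TET. By array, Irf1 read 13.28, 13.08 and 13.25 in saline, 12.24, 11.91 and 12.29 under TMT and 11.01, 11.28 and 11.12 under TET (log2). The 3 groups of Irf1 did not overlap. Irf1, a factor known to drive Psmb8, Psmb9 and Psmb10, fell 2.08-fold under TMT (−1.06, SE 0.12, adjusted p = 1.0e-04) and 4.18-fold under TET (−2.06, SE 0.12, adjusted p = 5.7e-07). Ifngr1, a subunit of the interferon-gamma receptor, fell 1.77-fold under TMT and 5.30-fold under TET (adjusted p = 2.5e-04 and 8.6e-08). Ifnar1, of the type I interferon receptor, rose 1.29-fold under TMT (0.37, SE 0.11, adjusted p = 0.025) and fell 3.29-fold under TET (−1.72, SE 0.11, adjusted p = 7.2e-07). The rise of Ifnar1 was not kept without saline replicate 1, 2 or 3 or TMT replicate 1 or 3 (adjusted p 0.058 to 0.098, differences 0.30 to 0.39). Ifnb1, encoding interferon-beta, fell from 7.91 to 4.31 under TMT and to 6.25 under TET. Of 13 genes of class I antigen presentation, 5 rose and 0 fell under TMT, and 0 rose and 4 fell under TET (medians 0.11 and −0.15). At an unadjusted p under 0.05 limma gave 5 under TMT and 5 under TET. Of these 13 genes, 11 were in the brightest quintile. There 18% of all genes rose and 29.3% fell under TMT, and 16.5% rose and 45.9% fell under TET. Npepps and Erap1, peptidases that trim antigenic peptides, rose 1.54-fold and 1.38-fold under TMT (adjusted p = 0.0044 and 0.016) and did not pass under TET, where both passed after cyclic loess (adjusted p = 0.0056 and 0.014). The rise of Erap1 was not kept without saline replicate 3 or TMT replicate 1 (adjusted p 0.069 and 0.061, differences 0.41 and 0.44). Calr and Pdia3, chaperones of the peptide-loading complex, fell 1.46-fold and 1.35-fold under TET (adjusted p = 0.0099 and 0.010), of which that of Pdia3 missed the threshold after cyclic loess (adjusted p = 0.072).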

How the data were processed

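The members and gene lists were chosen with earlier results of these data known. RMA and affy are named in the submitters' processing notes, without version. Per the labels' protocols, RNA was amplified with a Nugen kit and hybridised to Affymetrix mouse arrays. The authors deposited log2 signals for 45037 probe sets on 9 arrays, used as deposited. The base of the logarithm was taken from the values (2.05 to 14.8). With 3 arrays a group, precision is limited by their number.

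Probe sets took their genes from the platform annotation, with symbols updated through gene identifiers in RefSeq (GRCm38.p6). Of the probe sets, 34945 named 1 gene, 932 several and 9160 none. The test was the moderated linear model of limma 3.58.1 (R 4.3.3), with 1 mean per group over all 9 arrays, two-sided p-values and Benjamini-Hochberg adjustment over 18193 genes. No source used here says that replicates came from separate mice, so a p-value covers only the spread among these cultures. Array values are given for the catalytic, activator, inhibitor and core chaperone genes and the 8 smallest adjusted p in each comparison with saline. Up to 4 genes per pathway list were named by the same measure. Other genes, and the probe sets shown for single genes, were picked after their values were seen. The alternatives tried are in the closing section.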

Additional observations from a re-analysis of the deposited data

How the results depend on the processing

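Of the calls, 5 under TMT (Psmb8, Psmb10, Psmc1, Psme1, Psme4) and 6 under TET (Psma8, Psmb6, Psmd5, Psmd8, Psmd12, Psmg2) passed in every alternative that measured them. The count of 13 risen under TMT became 6 with plain probe sets alone (without s_at, x_at and a_at, fewer genes measured) and 25 with array weights. The count of 1 fallen became 2 and 3, and 0 with the mean over probe sets. Under TET 12 risen became 19 and 10 fallen became 4 after cyclic loess, which was chosen after seeing the data, and 6 fell after quantile normalization again. The median under TET became −0.087 with plain probe sets and 0.19 after cyclic loess, and that of TET against TMT −0.081 after cyclic loess. With 6 arrays alone 4 genes were higher under TET than TMT. Leaving out each array gave 0 to 1 fallen under TMT, 7 to 10 risen under TET and 3 to 8 higher under TET than TMT. Psmb8 minus Psmb5 became 0.38 and 0.37 with the mean over probe sets. That mean takes in a dim x_at probe set of Psmb8, which differed by 0.72 under TMT and 0.18 under TET. The causes of the other shifts were not tested.

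Where the original or the new value passed, signs turned with the plain probe set in Psma3 (−0.43 under TMT, −1.27 under TET), Psma5 (−0.19, −0.64), Psmc6 (−1.52 under TET, −1.65 against TMT), Psmd13 (0.69, 0.30) and Ubqln1 (0.40, 0.37). Against saline they also turned there, with neither value passing, in Psmb3 (−0.42 under TET), Psmb4 (−0.092 under TET) and Psmd6 (−0.23 under TMT). Where either passed, they turned with the mean over probe sets in Psma3 (−0.62 under TET), Psmc6 (−0.77, and −0.97 against TMT), Psmd13 (0.031), Ubqln1 (0.065, 0.091), Psmd9 (−0.33 against TMT) and Nfyb (0.53 against TMT). Ubqln1 was 0.70 and 0.60 without s_at and x_at probe sets, and Psmd3 0.012 under TET after cyclic loess.

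Replicate numbers did not pair the arrays, since deviations of same-numbered arrays correlated at −0.148 to 0.308. With the replicate block 13 rose and 0 fell under TMT, 11 rose and 8 fell under TET, and 6 were higher and 16 lower under TET than TMT. Against saline the block lost the calls of Psmc4 and Psmg2 and added Psmf1 under TMT, and lost Psmb11, Psmc3 and Psmd3 under TET.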
